A study of Mus musculus with 4 samples.

Results

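The miR-29 family of the mouse comprises 3 mature miRNAs, assayed here as mmu-miR-29a, mmu-miR-29b and mmu-miR-29c. All 3 were chosen by name from the 517 mouse miRNAs assayed on TaqMan low density arrays in bronchoalveolar stem cells (BASCs). The rule did not use their values, though earlier results of these data were known. Assays of the other strand of the hairpins, marked with an asterisk, were not counted as members. All 3 were detected in each of the 4 samples. The CT values of miR-29a, the most abundant member, lay within 0.2 cycles of each other in control and c-Myc depleted BASCs. Relative to U6, a reference RNA, both depleted samples lay above both controls for miR-29b and below both for miR-29a, each by a small margin. The groups overlapped for miR-29c. A lack of overlap was common, at 58.6% of the 263 detected miRNAs. None of the 3 changes passed the test.

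BASCs are lung cells with progenitor properties that carry markers of club cells and of alveolar type II cells. They had been sorted from lungs of ICR mice aged 4 to 6 weeks as cells with Sca-1 and CD34 and without CD31 and CD45, and were grown on irradiated mouse embryonic fibroblasts by the study's methods, or on collagen once established by its results. The 2 samples of the c-Myc depleted group came from stable lines selected with puromycin after lentiviral delivery of a c-Myc shRNA. The 2 control samples are labelled only as control. The study's text calls the compared cells wild type in places and control in others, and its growth assay used BASCs infected with a control lentivirus. Sources used here do not say which shRNA the depleted samples carried or whether replicates were separate cultures, so p-values measure only the spread between these samples, which may be technical. c-Myc mRNA is not read by these cards, so the depletion could not be checked in these samples. The study itself measured c-Myc mRNA by real-time PCR and protein by western blotting in its stable lines.

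MiRNAs are short RNAs that guide silencing complexes to messenger RNAs, mainly through pairing of bases 2 to 8, the seed. The miR-29 family is best known for repressing messages of collagens and other extracellular matrix proteins, and its loss accompanies fibrosis in lung and other organs. It also represses DNA methyltransferases and the anti-apoptotic protein Mcl1. In lymphoid cells Myc represses miR-29 genes.

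The mature sequences show why the members count as a family and how closely their assays must discriminate. They are given from 5′ to 3′ with the seed in capitals, from RefSeq on mouse assembly GRCm38.p6, where all 3 members were matched by name to the 3p strand.
miR-29a: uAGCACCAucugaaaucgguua
miR-29b: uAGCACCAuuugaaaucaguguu
miR-29c: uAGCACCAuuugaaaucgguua
The seed AGCACCA is shared by all 3 members and by no other of the 1679 mature mouse miRNA names in that table, and its perfect match in a target message reads UGGUGCU. Counted from the 5′ end, miR-29a and miR-29c differ by a single base (C10U, with the base of miR-29a first). miR-29c and miR-29b differ at 3 of the 22 positions that both have (G18A, U21G and A22U, with the base of miR-29c first), and miR-29b is 1 base longer at 23. The 3′ end of miR-29b holds AGUGUU (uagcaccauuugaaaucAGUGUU, with that hexamer in capitals), a sequence described as a nuclear import signal of miR-29b. It is absent from miR-29a and miR-29c and present in 12 of the 1679 mature names. How far each assay reads the other members was not tested.

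The family comes from 4 genes in 2 clusters. On chromosome 6, Mir29a (mature strand chr6:31062673-31062694, minus strand) lies beside Mir29b-1 (mature strand chr6:31063025-31063047, minus strand), with 275 bases between the hairpins. On chromosome 1, Mir29b-2 (mature strand chr1:195037091-195037113, plus strand) lies beside Mir29c (mature strand chr1:195037600-195037621, plus strand), with 426 bases between the hairpins, and both fall within the span of the long non-coding RNA gene A330023F24Rik. Mature miR-29b from Mir29b-1 and Mir29b-2 is identical in sequence, so the miR-29b assay reads the sum of both clusters, while miR-29a and miR-29c each report on 1 cluster.

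Each well of the array yields a CT, the number of PCR cycles needed for the product to cross a set level, so that CT falls by 1 for each doubling of the template. Each sample was run on card A and card B, with 384 wells on each card, and the members were all on card A with 1 well per sample. Between 334 and 351 of the 768 wells per sample gave a CT. Subtracting the average of the card's own 4 wells for U6, a small nuclear RNA, from a CT gives ΔCT, and log2 changes were taken as mean ΔCT in the controls less mean ΔCT in the depleted samples, which makes a rise after depletion positive. Values of a group are given with replicate 1 first. In these bulk samples a change in the share of cells and a change in RNA per cell cannot be told apart.

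miR-29a gave CT values of 22.9 and 22.8 for the controls and 23.0 in each depleted replicate. Before normalization it thus lay within 0.2 cycles in all samples. Relative to U6, its ΔCT was 4.05 and 3.68 for the controls, against 4.09 and 4.12 after depletion. The depleted samples lay below both controls in level, without overlap, although the nearer control was almost equal to them. The log2 change was -0.25 (standard error 0.18, 95% interval from -0.76 to 0.27, adjusted p = 0.411 from limma over 80 miRNAs), which is not larger than the spread between replicates. The interval reaches from a 1.70-fold lower to a 1.21-fold higher level.

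For miR-29c the control CT values were 28.0 in replicate 1 and 28.5 in replicate 2, against 27.8 and 28.0 in the respective depleted replicates. Its ΔCT was 9.10 and 9.43 for the controls, against 8.89 and 9.15 after depletion. Control replicate 1 lay between the depleted samples, so the groups overlapped. The log2 change was 0.24 (standard error 0.20, 95% interval from -0.33 to 0.81, adjusted p = 0.433 from limma). Its direction was not settled, since it was negative, at -0.13, when the median of the detected miRNAs in a sample took the place of U6, and also at -0.06 with snoRNA135 and snoRNA202 as reference.

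miR-29b, the least abundant member, crossed the level at 31.5 and 31.0 cycles for the controls and earlier, at 30.6 and 30.0, after depletion. Its ΔCT was 12.6 and 11.9 for the controls, against 11.8 and 11.1 after depletion. Both depleted samples were higher in level than both controls, but the gap between the groups was smaller than the distance between the samples of either group. The log2 change was 0.78 (standard error 0.41, 95% interval from -0.41 to 1.97, adjusted p = 0.351 from limma over the 263 detected miRNAs). The lowest ΔCT of miR-29b, 11.1, is above the study's limit of 10, so unlike miR-29a and miR-29c it was tested only among all detected miRNAs. The interval reaches from a 1.33-fold lower to a 3.93-fold higher level.

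**Figure D1:**
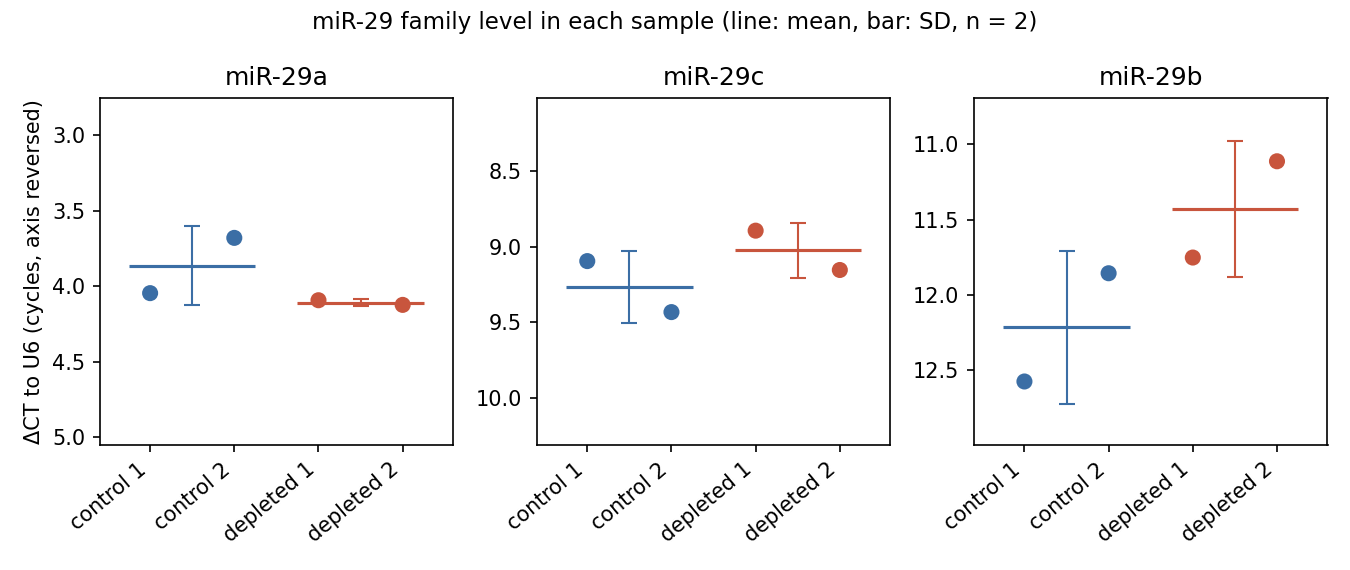
Level of miR-29a, miR-29c and miR-29b in each sample, as ΔCT to U6 of the same card in cycles on a reversed axis that spans the same number of cycles in each panel. Points are samples (blue, control; red, c-Myc depleted), lines are group means and bars are SD with n = 2. The depleted samples sit together for miR-29a at 4.09 and 4.12, overlap the controls for miR-29c, and sit above the controls for miR-29b.

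In the test over the 80 miRNAs whose lowest ΔCT was below 10, limma called 32.5% at an adjusted p of 0.05, 25.0% as higher after c-Myc depletion (20 miRNAs) and 7.5% as lower (6 miRNAs). With median centring per sample, 3 were higher and 3 lower, and with quantile normalization 0 were higher and 4 lower. Of the family, 2 of 3 members entered this test and 0 were called, with unadjusted p-values of 0.247 for miR-29a and 0.293 for miR-29c. In the test over all 263 detected miRNAs 0.76% were called, and miR-29b, with an unadjusted p of 0.136, was not. One-way analysis of variance per miRNA called only 3 of the 80, and neither miR-29a nor miR-29c was among them. Over the 263, miR-29b was not called by it (adjusted p = 0.546), and the count over all 263 is not given here. With so few calls this test says little of the members. A non-overlap of ΔCT between the groups, as for miR-29a and miR-29b, was found for 67.5% of the 80 miRNAs and 58.6% of the 263. The smallest p that an exact permutation test of 1 member could reach here, two-sided, is 0.333. Ordered from the largest rise to the largest fall, miR-29c ranked 33 and miR-29a ranked 61 among the 80, where the median log2 change was 0.05.

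**Figure D2:**
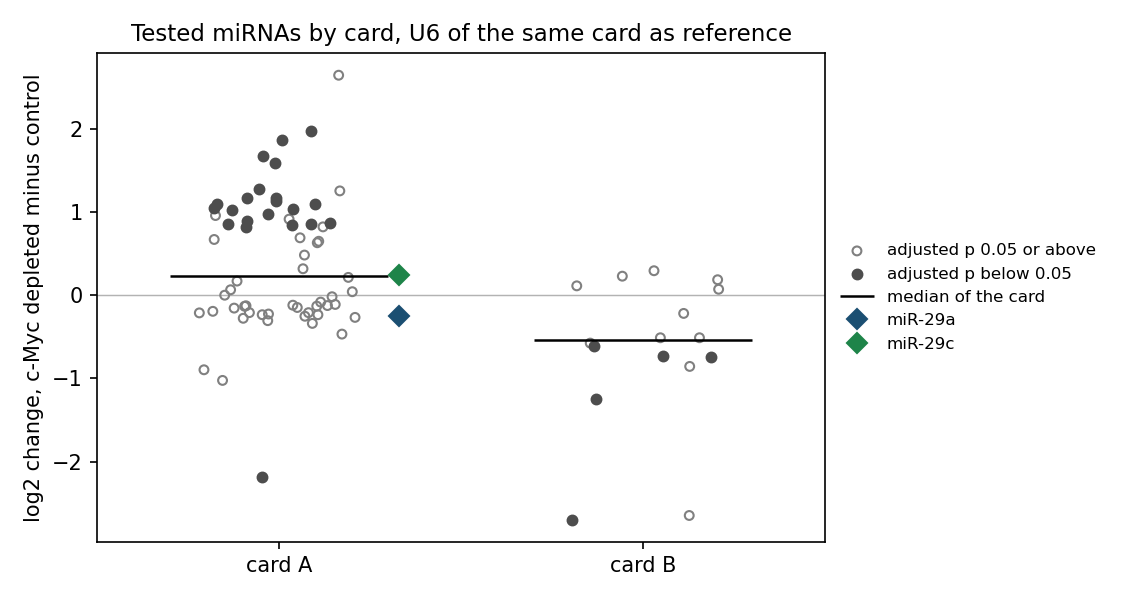
Log2 change (c-Myc depleted minus control, U6 of the same card as reference) of the 80 miRNAs with a lowest ΔCT below 10, by card. Filled circles have an adjusted p below 0.05 in limma, open circles do not, lines are card medians, and diamonds mark miR-29a (-0.25) and miR-29c (0.24), neither of which was called.

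Both tested members lie on card A, where the median log2 change of the 64 tested miRNAs was 0.23. Relative to that median miR-29a lay at -0.47 and miR-29c at 0.01. With card A fitted alone the adjusted p was 0.438 for miR-29a and 0.440 for miR-29c in limma. Of the 64 tested miRNAs, 20 were then called higher and 1 lower. miR-29b was fitted over all detected miRNAs of card A instead, with an adjusted p of 0.383 in limma. Relative to the median of those miRNAs it lay at 0.50. In the test over all 80, every higher call lay on card A, and of the lower calls only miR-126-3p did. The changes of the members moved with the choice of reference RNA. On card A the U6 signal was higher in depleted BASCs by 0.15 cycles and snoRNA135 by 1.07 cycles, whereas snoRNA202 changed by -0.17. On card B snoRNA202 was higher by 1.001 cycles and snoRNA135 changed by -0.02. Once U6 was replaced by snoRNA135 and snoRNA202, miR-29a had a log2 change of -0.55 and an adjusted p of 0.0480 in limma, the only setting in which a member of the family was called. Under this reference the median over the 80 miRNAs was -0.18, and miR-29a lay at -0.36 relative to it.

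**Figure D3:**
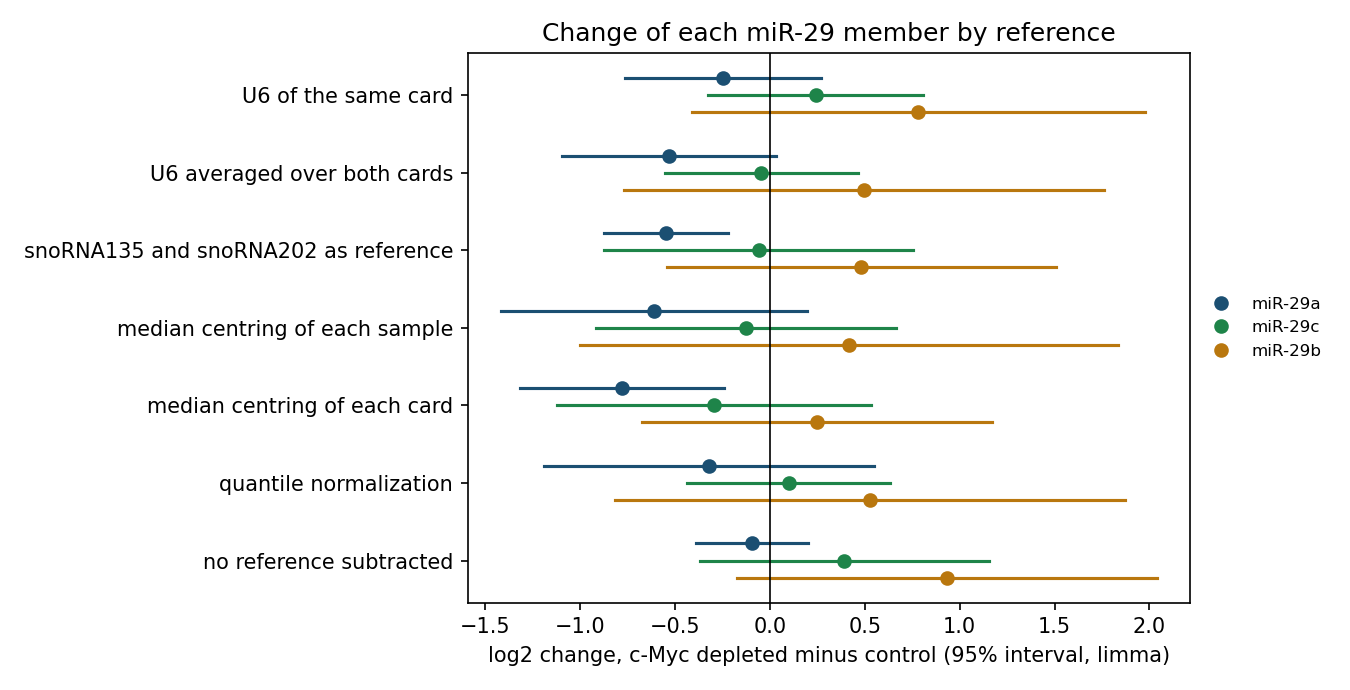
Log2 change (c-Myc depleted minus control) of the 3 members under 7 choices of reference, with 95% intervals from limma. miR-29a lies below 0 and miR-29b above 0 under each of these choices, and miR-29c falls on either side. All 3 assays share card A, so each choice except quantile normalization moves the members by the same amount.

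A ratio of members within a sample needs no reference RNA, since all 3 assays share a card. The log2 ratio of miR-29a to miR-29b was 8.53 and 8.18 for the controls, against 7.66 and 6.99 after depletion. The groups did not overlap, and miR-29b gained on miR-29a by 1.03 on the log2 scale (change of the ratio -1.03). The log2 ratio of miR-29a to miR-29c was 5.05 and 5.75 for the controls, against 4.80 and 5.03 after depletion. Here too the groups did not overlap, but the nearest samples were almost equal, and the change was -0.49. The log2 ratio of miR-29c to miR-29b, 3.48 and 2.42 for the controls, against 2.86 and 1.96 after depletion, overlapped and changed by -0.54. The exact two-sided permutation p was 0.333 for each of the first pair of comparisons, the smallest this design allows, and 0.667 for the last, or 0.5, 0.5 and 0.667 after Benjamini-Hochberg adjustment over the 3 comparisons. The ratios therefore describe these samples, and no difference between members was established by a test.

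**Figure D4:**
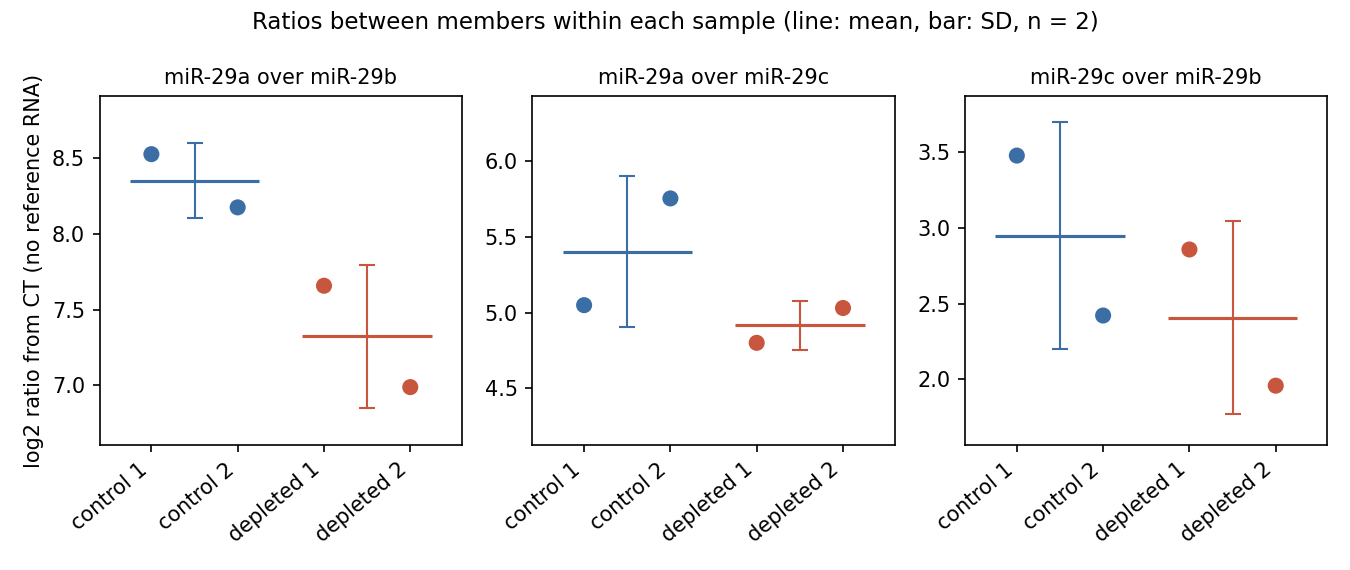
Log2 ratio between pairs of members within each sample, computed from CT without a reference RNA, on axes that span the same number of log2 units in each panel. Points are samples (blue, control; red, c-Myc depleted), lines are means and bars are SD with n = 2. Both depleted samples sit below both controls for miR-29a over miR-29b and, by a small margin, for miR-29a over miR-29c.

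Converted to copies per cell by the formula of the study, which applies a single calibration curve to every assay, miR-29a stood at 6150.3 ± 466 copies (SD, n = 2) in the controls and at 5754 ± 25.5 (SD, n = 2) in the depleted samples. It ranked 3 among all mouse miRNAs in both groups. miR-709 lay next above it in the controls, with 6232 ± 424 copies, a difference smaller than the spread between replicates. miR-16 lay next below, with 3181 ± 392 copies, and there the gap to miR-29a exceeded that spread. In the depleted samples miR-19b, also on card A, was almost level with miR-29a, at a ΔCT of 4.11 and 4.12 against 4.09 and 4.12.

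miR-29c had 151 ± 39.9 copies (SD, n = 2) in control and 195 ± 22.7 (SD, n = 2) in depleted BASCs, ranking 51 and 45. Its neighbours in the controls, miR-214* with 158 ± 33.5 and miR-186 with 122 ± 40.3 copies, lay within the spread between replicates of it. miR-29b had 19.7 ± 4.82 copies (SD, n = 2) in control and 37.9 ± 11.98 (SD, n = 2) in depleted BASCs, ranking 120 and 113. The order of the family, miR-29a above miR-29c above miR-29b, held in each sample, with gaps far larger than the spread between replicates. On this scale miR-29a made up between 96.0% and 97.8% of the summed copies of the 3 members, and miR-29b between 0.271% and 0.778%. Amplification differs between assays and only 1 curve was used, so levels of different members are approximate.

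The other strands of the same hairpins were near the limit of detection. On card B, where each has 2 wells per sample, the mean CT of miR-29a* was 32.97 and 33.6 for the controls, against 32.4 and 32.6 after depletion. Its log2 change relative to U6 of card B was 0.10 (95% interval from -0.57 to 0.76, adjusted p = 0.811 from limma over the 263 detected miRNAs). The mean CT of miR-29b* was 32.9 and 32.8 for the controls, against 32.7 and 32.3 after depletion, with a log2 change of -0.36 (95% interval from -1.30 to 0.58, adjusted p = 0.596 from limma). miR-29c* gave a CT of at most 35 in 1 of its 2 wells in control replicate 2 and in 1 in depleted replicate 2, and in none of the others. No change of a strand was therefore resolved. The U6 signal of card B was higher in depleted BASCs by 0.72 cycles, which lowers each of these changes relative to the CT. The rat assays for miR-29b-1* and miR-29b-2* gave no CT in any sample.

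Other miRNAs that are described as repressed by Myc showed a mixed picture beside the miR-29 family. Of 19 such miRNAs, all were assayed and detected, and 9 entered the test over 80 miRNAs. In c-Myc depleted BASCs 3 of the 9 were higher, 0 were lower and 6 did not pass, a share near the 32.5% called among all tested. miR-34a, which p53 induces, rose by 1.17 log2 units (limma, adjusted p = 0.0107), miR-26a by 1.10 (adjusted p = 0.0190) and miR-30c by 0.87 (adjusted p = 0.0279). The other 6, among them let-7c (-0.19), let-7g (-0.12), miR-16 (-0.27) and miR-30b (-0.21), had values between -0.31 and 0.30. The median of the 9 was -0.12, against 0.05 for all 80. All but miR-22 lay on card A. With card A fitted alone the median of the 8 left was -0.16, against 0.23 for the 64 tested miRNAs. The study selected miR-34a and miR-26a on these samples, and their CT values after depletion include some with more decimals than the 6 of the other values. Without such miRNAs 1 of 7 was called, and the share over all tested miRNAs under that exclusion was not computed. CT values of the miR-29 assays had at most 6 decimals. With median centring per sample 0 of the 9 were called, beside only 6 of all 80.

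Among miRNAs studied in tissue fibrosis, the field in which miR-29 is best known, 15 were assayed, 13 detected and 7 tested. miR-214 (log2 change 1.02, adjusted p = 0.0115 from limma), miR-26a and miR-30c were higher, 0 were lower and 4 did not pass. The 3 of 7 stand beside 32.5% called and 25.0% higher among all 80, and beside 20 of 64 higher with card A fitted alone. The count says little about the list. miR-21, which rises in fibrotic lung, had a log2 change of -0.25 (adjusted p = 0.433), close to that of miR-29a. miR-145, abundant in smooth muscle and myofibroblasts, had -0.13 and miR-155 also -0.13. miR-199a-5p had -0.90 with a standard error of 2.97, since it stood at the CT ceiling of 35 in control replicate 2 and depleted replicate 1. miR-214, like miR-26a, was selected by the study on these samples. The median of the 7, all on card A, was -0.13, against 0.23 for the tested miRNAs of that card and 0.05 for all 80. Without miRNAs whose CT values had more decimals 1 of 5 was called, and the share over all tested miRNAs was then not computed. As for the preceding list, the count was 0 under median centring of each sample, where only 6 of all 80 were called.

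The miRNAs whose profile over the 4 samples was most like that of a member were found from the root mean square difference of ΔCT, each centred on its own mean, among the 80 miRNAs. For miR-29a these were miR-106a (0.0142 cycles), miR-30b (0.0308), miR-21 (0.0403), miR-92a (0.0747) and miR-155 (0.0769), all on card A. The median difference over the 79 candidates, from both cards, was 0.333 cycles. It was 0.533 cycles for miR-29b and 0.404 for miR-29c. For miR-29b the nearest were miR-100 (0.195 cycles), miR-132 (0.257), miR-26a (0.280), miR-99b (0.281) and let-7i (0.289), also on card A. For miR-29c they were miR-34c* (0.132), miR-146b (0.140), miR-720 (0.168), miR-709 (0.206) and miR-143 (0.237), with 3 of them on card B. Calls numbered 0 of 5 for the neighbours of miR-29a, 3 of 5 for those of miR-29b and 0 of 5 for those of miR-29c, against 32.5% of the 80, and the neighbours were picked for following the member's own profile. Of 20 CT values for each set of neighbours, the part after the decimal point was 0.9 or more in 17 for miR-29a, 11 for miR-29b and 9 for miR-29c. No miRNA was among the nearest of more than 1 member. These likenesses rest on 4 samples that share U6 values and are a description.

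The deposited CT values were not spread evenly between whole cycles. Of 1366 CT values, 604 (44.2%) had a part after the decimal point of 0.9 or more, whereas the other 9 intervals of the same width held between 47 and 143 each. The share ranged from 31.7% in depleted replicate 1 to 54.5% in depleted replicate 2. Of the 12 CT values of the miR-29 family, 7 were of this kind, 3 of the 4 of miR-29a and 2 of 4 each of miR-29b and miR-29c. For miR-29a this includes both depleted samples, whose SD in CT was 0.00644 cycles. The part of this pattern in the small spread of miR-29a after depletion was not tested.

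**Figure D5:**
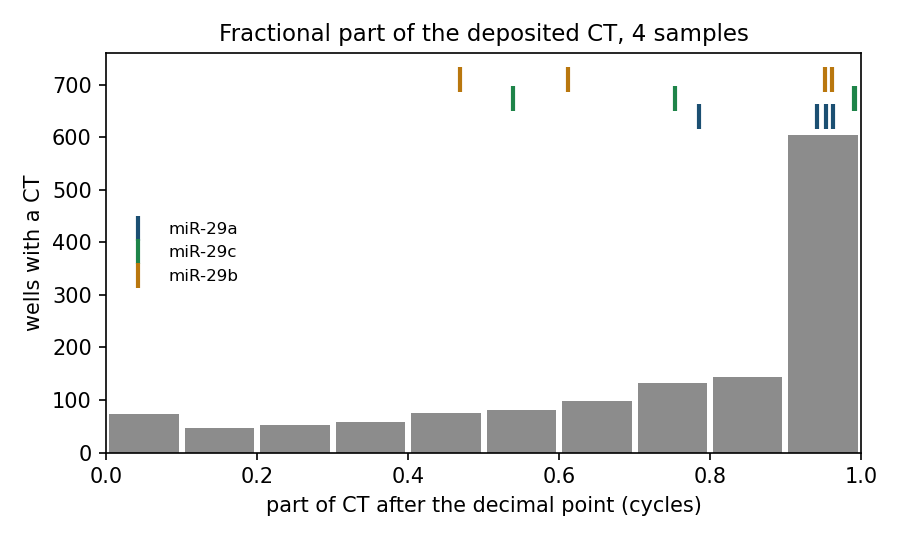
Number of wells by the part of the CT after the decimal point, in cycles, over the 4 samples (bars), with the 4 values of each miR-29 member as ticks above. The last interval holds 604 wells, and 7 of the 12 ticks fall in it.

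Markers of cell types were scarce for epithelium, the lineage of the label, and abundant for fibroblasts. Of 8 miRNAs typical of epithelium, the miR-200 family among them, 6 were detected and 1 in all samples, miR-203 and miR-205 were not detected, and 0 entered the test. Their summed level was 43.3 and 12.8 copies per cell for the controls, against 11.8 and 4.36 after depletion. Of 5 miRNAs typical of fibroblasts all were detected, with summed levels of 3344 and 3324.5 copies for the controls, against 4984 and 4857 after depletion. The 2 endothelial miRNAs, miR-126-3p and miR-126-5p, summed to 106 and 104 copies for the controls, against 28.7 and 26.0 after depletion. Of 6 blood cell miRNAs all were detected, 1 of them in all samples, and miR-486 was detected in the depleted samples only. Their summed level was 30.6 and 4.51 copies for the controls, against 89.6 and 93.5 after depletion. miR-486 had a log2 change of 5.76 and miR-223 of 0.30, while the other blood cell miRNAs had negative values. Of these fibroblast miRNAs, miR-199a-3p (log2 change 0.82) and miR-214 (1.02) had the positive values behind the higher sum, while miR-143 was at 0.04, miR-145 at -0.13 and miR-199a-5p at -0.90. The part of the fibroblast sum in the values of the miR-29 family was not tested. Whether the profiled cultures held feeder fibroblasts or grew on collagen is not given in the sources used here.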

How the data were processed

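MiRNA levels were read in 4 samples (2 control, 2 c-Myc depleted). The authors ran TaqMan Rodent cards A and B, took CT values from RQ manager, and deposited the CT of each well in cycles, before normalization. The submitters' processing notes name Partek 6.4. Groups and replicate numbers were taken from the sample titles. A well with no CT or a CT above 35 was set to 35, wells of an assay were averaged, and the mean U6 CT of the same card was subtracted. The negative ΔCT, a log2 scale, was fitted in R (version 4.3.3) with lmFit and eBayes of limma (version 3.58.1), with Benjamini-Hochberg adjustment, over miRNAs with a lowest ΔCT below 10 or, for miR-29b and the other strands, over those with a CT below 35 in at least 1 sample. The number of samples limits the precision, with 2 residual degrees of freedom per miRNA before pooling. Scripts were tested on simulated data. Exact tests enumerated the assignments of samples to groups in Python (version 3.11.15), and scipy (version 1.17.1) gave their Benjamini-Hochberg adjustment.

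The members and the lists were chosen with earlier results of these data known. Named miRNAs were the members, their other strands, reference RNAs, list miRNAs past the test, the 5 nearest profiles per member, neighbours in copies per cell and cell type markers. The other list members named with values were chosen after these were seen. Alternatives covered the reference, the CT ceiling, the ΔCT filter, the test and the samples. The fit without a reference, the crossed block and card A alone were added after the data were seen.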

Additional observations from a re-analysis of the deposited data

How the results depend on the processing

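Other CT ceilings, filters, tests and blocks leave the fitted changes as they are by construction. Under the other references the change of miR-29a ranged from -0.78 to -0.09, and it was called only with snoRNA135 and snoRNA202 as reference (-0.55). That of miR-29b ranged from 0.25 to 0.93 and was not called. The filters on ΔCT gave no separate value for miR-29b. miR-29c was not called, and its change turned negative under median centring of each sample (-0.13) or card (-0.29), with U6 averaged over both cards (-0.045) and with snoRNA135 and snoRNA202 (-0.060). With 1 sample left out at a time the changes ranged from -0.43 to -0.06 for miR-29a, from 0.42 to 1.14 for miR-29b and from 0.07 to 0.41 for miR-29c. The lone sample of a group is then assumed to vary like the others. The 3 ratios between members kept their direction under quantile normalization and with each sample left out, where that of miR-29c to miR-29b reached -0.01. With U6 made equal in the 4 samples, miR-29a had 5462 copies in depleted BASCs.

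The number of miRNAs called among all tested, 26 (76.9% of them higher), was 6 with median centring of each sample, 5 (3 higher and 2 lower) with median centring of each card, 14 (12 higher and 2 lower) with U6 averaged over both cards, 4 (0 higher) with quantile normalization, 2 with no ΔCT filter, 17 with ΔCT below 10 in all 4 samples and 3 (all higher) with one-way analysis of variance per miRNA. With snoRNA135 and snoRNA202 12 were higher and 6 lower, and with no reference 26 higher and 2 lower. The miRNAs described as repressed by Myc and those of fibrosis had 3 calls each. For both, the number was 0 with median centring of each sample or card, quantile normalization, no ΔCT filter or analysis of variance. With U6 averaged over both cards it was 1 for each list. Without miRNAs whose CT had over 6 decimals it was 1 for the former, and the share over all tested miRNAs was then not computed. With 1 sample left out at a time the counts ranged from 0 to 25 over all tested and from 0 to 2 for each list. Without depleted replicate 1 there was 1 call over all tested, and without depleted replicate 2 there were 0. The causes of these shifts were not tested.

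Deviations of samples with the same number correlated at -0.44 over the 80 miRNAs. With the replicate number as a block 0 miRNAs were called over all tested and 0 in each list, and with the crossed pairing, added after the data were seen, 33 were called. Under the block the adjusted p was 0.493 for miR-29a, 0.373 for miR-29b and 0.435 for miR-29c in limma, with fitted changes of -0.25, 0.78 and 0.24 that a balanced block cannot alter. Since it called nothing, it says nothing of their stability.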
